A study of Drosophila melanogaster and Drosophila simulans and Drosophila yakuba with 72 samples.

Results

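MicroRNA (miRNA) levels were compared between stages of development in females of a Drosophila simulans stock, genotype 14021-0251.167, a fruit fly closely related to D. melanogaster. The members were chosen by their labels, not by any measured value, and comprise 8 of the 72 samples of the series. Of these, 4 were marked PF, taken to mean puparium formation, when the larva forms its puparium, and 4 were marked as at least 18 before PF, with no unit given, and are called the earlier stage. All were whole animals, pooled for each RNA extraction and reared at 1 temperature, and 1 stock stands for the species. Each of 4 arrays carried a PF and an earlier sample of the same replicate number in opposite dyes, PF in Cy5 on replicates 1 and 3 and in Cy3 on replicates 2 and 4. A further 2 comparisons set the stage change of these females against other samples. One used the 8 D. simulans males of the same stock (4 PF and 4 earlier), the other the 16 females of the D. melanogaster strains Oregon-R and Zimbabwe-109 (4 PF and 4 earlier each).

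A miRNA is cut from a hairpin precursor, which can yield a mature strand from either arm, and it represses messenger RNAs that pair with its seed, bases 2 to 8. In Drosophila a pulse of the steroid ecdysone starts metamorphosis, and the let-7 complex is the classical set of miRNAs known to be switched on at that time. Its members let-7, miR-100 and miR-125 are cut from 1 transcript in D. melanogaster and are known for timing the remodelling of the neuromuscular system. The targets of these probes, as listed in the array files, are shown 5′ to 3′ with the seed in capitals, because they carried the largest rises. Their D. melanogaster hairpins lie on chromosome arm 2L in the RefSeq gene table.
let-7: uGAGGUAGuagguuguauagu
miR-100: aACCCGUAaauccgaacuugug
miR-125: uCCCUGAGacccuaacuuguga

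The next set is shown because it groups probes by a shared seed. The miR-2 family targets miR-2a, miR-2b (both 2L), miR-2c (3R) and miR-13b (3R and X) share the seed AUCACAG with miR-11 (3R), and they differ outside it. The targets of miR-276a and miR-276b (both 3L) also share a seed.
miR-2a: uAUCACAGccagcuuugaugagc
miR-2b: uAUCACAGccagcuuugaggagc
miR-2c: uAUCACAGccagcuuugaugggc
miR-13b: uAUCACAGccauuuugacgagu
miR-11: cAUCACAGucugaguucuugc
miR-276a: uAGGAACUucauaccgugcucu
miR-276b: uAGGAACUuaauaccgugcucu

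The last set is shown because all but miR-275, given for its seed, fell at PF or changed differently in the females described here than in other flies. The probe named for D. simulans miR-34 and the one named for D. melanogaster differ in the length of the target, and the third target is the opposite arm of the hairpin (all 3R). miR-275 and miR-306 (both 2L) share the seed CAGGUAC, whereas miR-305 (2L) has another. Targets of miR-10 (3R) and miR-289 (3L) complete the set.
dsi-miR-34: uGGCAGUGugguuagcugguug
dme-miR-34: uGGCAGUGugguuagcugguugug
dme-mir-34-3p: cAGCCACUaucuucacugccgcc
miR-275: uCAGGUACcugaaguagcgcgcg
dme-miR-306: uCAGGUACuuagugacucucaa
dme-miR-305: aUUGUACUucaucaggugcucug
dsi-miR-10: aCCCUGUAgauccgaauuugu
miR-289: uAAAUAUUuaaguggagccugcgacu

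Of 1339 miRNA probes, 272 were tested. Between 147 and 196 probes were detected per sample, and replicate 4 had the fewest at both stages, 147 at PF and 150 at the earlier stage. The log ratios of the 4 arrays correlated with each other at 0.84 to 0.97. The array files carry 4-digit codes of unstated meaning, 1 shared by replicates 1 and 2 and another by replicates 3 and 4, each with both dye orientations. The female label could not be checked: of 37 probes for testis miRNAs 0 were detected in at least 3 of 4 samples of a stage in these females and only 1, miR-964, in the males, and of 9 probes for ovary miRNAs 0 were detected in either sex. Among tissue miRNAs, miR-1 of muscle was bright (14.45 ± 0.16 at PF and 14.64 ± 0.16 earlier, SD, n = 4 each), whereas miR-133 of muscle and miR-124 of the nervous system were detected in 0 of 8 samples. In whole animals fewer cells of a type and less RNA per cell cannot be told apart. Levels are log2 normalized intensities, changes are log2 differences PF minus earlier with the standard error (SE) of the limma fit, and every adjusted p is limma's with Benjamini-Hochberg adjustment over the 272 probes.

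Of the 272 probes 38.2% passed the test at PF. Of these, 66 (24.3% of those tested) rose and 38 fell, and all but 1 had the same sign on all 4 arrays. Every called probe had the same sign in the mean of replicates 1 and 2 as in that of replicates 3 and 4. The calls were made on these same 4 arrays, so neither agreement is a separate check of them. Among the probes named for fly miRNAs, 24 rose and 16 fell. The median change over all tested probes was 0.04. PF and earlier samples did not overlap for 123 probes (45.2%). The split between rises and falls followed the scaling: 67 rose and 23 fell when arrays were centred on the median instead of by loess, and 25 rose and 50 fell in the authors' processed table, whose scale is unknown. The median of all probes was 0.17 under plain background subtraction, 0.16 with median centring and 0.15 with no normalization within arrays.

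The let-7 complex rose most. let-7 read 13.52, 12.48, 13.04 and 12.94 in PF replicates 1 to 4, against 8.25, 8.15, 8.39 and 8.49 in the earlier samples. Every PF sample lay above every earlier sample, and let-7 was detected in all 8. The rise was 4.68 ± 0.24 (25.6-fold, n = 4 arrays, higher on 4 of 4, adjusted p = 8.26e-24).

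miR-125, which in D. melanogaster acts beside let-7 on the neuronal factor Chinmo, read 10.37, 9.66, 10.41 and 10.54 at PF, against 6.48, 6.49, 6.43 and 6.83 earlier. It was detected in 4 of 4 PF samples and in 0 of 4 earlier ones, so the earlier level is only a bound. The means were 10.24 ± 0.39 at PF and 6.56 ± 0.18 earlier (SD), or at least 11.6-fold above the earlier samples (adjusted p = 4.52e-19). The probe ame-miR-125, named for the honeybee, gave a change of 3.77 ± 0.25.

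miR-100, the remaining member, read 9.30, 9.09, 9.66 and 9.51 at PF, against 6.49, 6.45, 6.50 and 6.95 earlier. The stages did not overlap, and the earlier samples were again all below detection. The means were 9.39 ± 0.25 at PF and 6.60 ± 0.24 earlier (SD), or at least 6.35-fold above the earlier samples (adjusted p = 1.12e-19). The earlier replicate 4 stood above the other 3 for both miR-100 and miR-125, on the array with the fewest detected probes.

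Of 10 tested probes of the complex, 7 rose (70.0%, beside 24.3% of all tested probes) and 0 fell. Their median was 0.86 beside 0.04 over all probes. PF and earlier samples did not overlap for any of the 10, beside 45.2% of all tested probes. The 10 include aae-let-7, dpe-miR-100 and dme-let-3p, which were not called (adjusted p = 0.607, 0.688 and 0.644). dpe-miR-100 was detected in 0 of 8 samples. Only let-7 itself was detected in all 8 samples, so the other 9 rest on dim values in at least 1 sample. dpu-miR-100, named for a water flea, rose with 0 of 4 earlier samples detected (at least 1.87-fold, adjusted p = 0.0165), and its call ended without replicate 1, 2 or 3 (adjusted p up to 0.0844). The passenger arm of let-7, dme-let-3p, was detected in 0 of 8 samples. The opposite arm of miR-125 was dim. The probe cqu-miR-125* on that arm was detected in 2 of 4 PF samples and 0 of 4 earlier ones and rose (6.55 ± 0.13 at PF and 6.12 ± 0.14 earlier, SD, adjusted p = 9.60e-05), a call that ended under none of the alternatives run. dme-mir-125-3p, the other probe of the arm, was detected in 0 of 8 samples, yet its change of 0.30 ± 0.10 passed the test (adjusted p = 0.0126), a call that ended without replicate 4 (adjusted p = 0.0700).

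**Figure D1:**
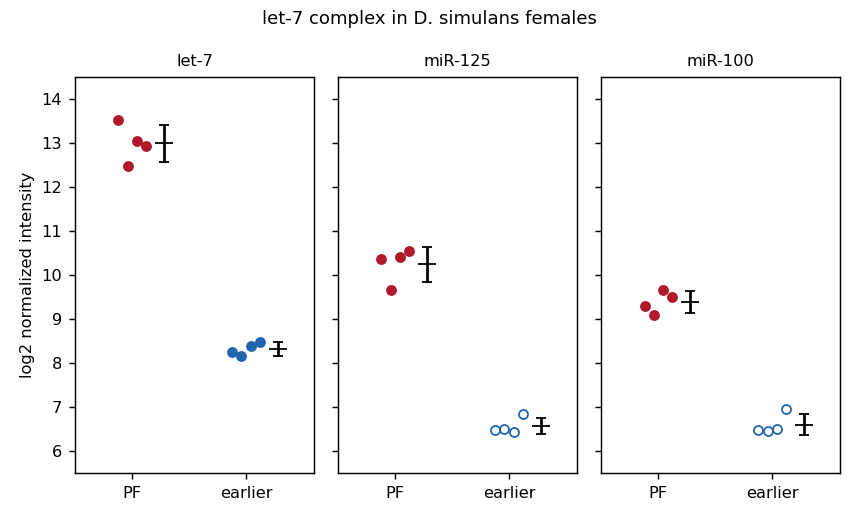
Log2 normalized intensity of let-7, miR-125 and miR-100 in each sample, with PF left of the earlier stage. Points are samples, open where the probe was detected in 0 of 4 samples of the stage, and bars are the mean ± SD of 4. let-7 lies at 12.48 to 13.52 at PF and at 8.15 to 8.49 earlier.

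The miR-2 family, whose members repress pro-apoptotic genes in D. melanogaster, rose in part. Of 20 tested probes of miR-2 and miR-13, which cover 9 arms, 12 rose and 0 fell, with a median of 0.77. The share that rose was 60.0%, beside 24.3% of all tested probes. The count was 3 in the authors' processed table and 7 in that table once centred, and the median lay between 0.57 and 1.08 over the scalings tried.

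miR-2a read 11.17, 11.37, 11.22 and 11.26 at PF, against 10.54, 10.30, 10.37 and 10.47 earlier, a rise of 0.83 ± 0.20 (adjusted p = 4.79e-04). miR-2b read 11.55, 11.66, 11.43 and 11.63 at PF, against 11.01, 10.77, 10.90 and 10.79 earlier (0.70 ± 0.13, adjusted p = 2.44e-05). Both were uniform among replicates, and neither overlapped between stages. miR-2c rose by 1.02 ± 0.28 (2.03-fold, adjusted p = 0.00268), detected in all 8 samples. The calls of miR-2a and miR-2b ended in both forms of the authors' table, and that of miR-2c in the table as deposited and with no replicate block. dme-mir-2b-2-5p, from the opposite arm of a miR-2b hairpin, rose by 0.85 ± 0.17, and the like arm of miR-2c, dme-mir-2c-5p, was detected in 1 of 8 samples (0.09 ± 0.09).

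Members of the family with the same seed did not all pass. miR-13b changed by 0.14 ± 0.24 (adjusted p = 0.791) and overlapped between stages. miR-11, known for limiting cell death driven by the E2F factor, changed by 0.29 ± 0.22 (adjusted p = 0.364), with PF values of 9.87, 10.53, 9.99 and 9.86 and earlier values of 10.31, 9.28, 9.99 and 9.51. Over all 17 tested probes with the seed AUCACAG, 10 rose and 0 fell. The flour beetle probe tca-miR-13a rose by 0.90 ± 0.31, a call that ended without replicate 1, 2 or 3 (adjusted p up to 0.0809).

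Of 27 tested probes of the list of nervous system and sense organ miRNAs 7 rose (25.9%, beside 24.3% of all tested probes) and 0 fell, with a median of 0.20. The rises numbered 4 in the authors' table and 15 when the 4 arrays were fitted alone with a dye term. miR-279, known in D. melanogaster for shaping the neurons that sense carbon dioxide, read 12.71, 12.50, 12.70 and 12.32 at PF, against 11.42, 11.67, 11.50 and 11.54 earlier. The stages did not overlap, and the rise was 1.02 ± 0.23 (2.03-fold, adjusted p = 2.35e-04). Its neighbour in the genome was measured only through the opposite arm, dme-mir-996-5p, which rose by 0.45 ± 0.16. That call ended without replicate 2, 3 or 4 (adjusted p up to 0.108). Of 5 tested probes of this cluster 4 rose (80.0%, beside 24.3% of all tested probes) and 0 fell, with a median of 0.99.

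miR-7, which stabilises the differentiation of photoreceptors and sense organs, read 8.57, 8.67, 8.60 and 8.25 at PF, against 7.59, 7.92, 7.73 and 7.54 earlier. All PF samples were higher (0.83 ± 0.21, adjusted p = 0.00108), though the call ended in the authors' table (adjusted p = 0.113). aae-miR-9b, a mosquito-named probe of the miR-9 family, rose by 1.10 ± 0.19. miR-9a, which limits the number of sense organ precursors, rose by 0.61 ± 0.24 (adjusted p = 0.0413), a call that ended without replicate 1, 3 or 4 (adjusted p up to 0.144). Its opposite arm, dme-mir-9a-3p, changed by 0.28 ± 0.18 (adjusted p = 0.241).

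miR-276b read 10.63, 10.63, 10.88 and 10.49 at PF, against 9.28, 9.43, 9.52 and 9.08 earlier. The stages did not overlap, and the rise was 1.33 ± 0.23 (2.52-fold, adjusted p = 4.38e-06). miR-276a, known in D. melanogaster for its part in olfactory memory and sharing the seed, rose by 0.62 ± 0.16 (1.54-fold, adjusted p = 9.21e-04). miR-252 rose by 0.60 ± 0.16 (adjusted p = 0.00223). miR-276a and miR-252 were chosen after their values were seen. miR-988 rose by 0.97 ± 0.17 and miR-1010, a mirtron cut from a spliced intron rather than by Drosha, by 0.74 ± 0.20. Each of those 2 was detected in 4 of 4 PF samples and 1 of 4 earlier ones, and each lost its call in the authors' table (adjusted p up to 0.364 and 0.393). Of 6 tested mirtron probes, miR-1010 was the only one that rose (16.7%, beside 24.3% of all tested probes), and 0 fell.

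The muscle and heart list held 14 tested probes, with a median of 0.60. Of these, 9 rose (64.3%, beside 24.3% of all tested probes) and 1 fell. All 10 were forms of miR-92: miR-1 changed by -0.19 ± 0.23 (adjusted p = 0.667), and miR-133 was not detected. The rises were 6 probes on the arm of miR-92a and 3 on that of miR-92b, so they are not 9 separate miRNAs. miR-92b, which in D. melanogaster tunes the muscle factor Mef2, rose by 0.53 ± 0.21 (adjusted p = 0.0386), a call that ended without replicate 1, 2 or 3 (adjusted p up to 0.167). cqu-miR-92 rose by 0.72 ± 0.24, a call that ended without replicate 1 or 2 (adjusted p up to 0.0675). miR-92a gave 0.60 ± 0.26 (adjusted p = 0.0575). Without replicate 1 the list kept 1 rise and without replicate 2 it kept 4, and the count was 0 with plain background subtraction and in the authors' table, and 1 with no replicate block. miR-311 and miR-312, which share the seed of miR-92, were detected in 0 of 8 samples.

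Among the falls, miR-34, known in D. melanogaster for its effect on ageing of the brain, was the largest of a fly miRNA without runs of G in its target. The dsi-miR-34 probe read 7.46, 7.48, 7.43 and 7.55 at PF, against 9.55, 9.33, 9.13 and 9.29 earlier. All PF samples lay below all earlier samples. The fall was -1.85 ± 0.21 (3.60-fold lower at PF, adjusted p = 1.90e-10). The longer dme-miR-34 probe gave -1.59 ± 0.18.

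The opposite arm of the hairpin, dme-mir-34-3p, read 7.07, 7.15, 6.71 and 7.34 at PF, against 9.13, 8.16, 9.04 and 8.94 earlier. It fell by 1.76 ± 0.26 on the log2 scale (3.38-fold lower, adjusted p = 1.16e-07), so both arms were lower at PF. dme-miR-277, which acts on branched-chain amino acid catabolism, and miR-317 lie in the same D. melanogaster cluster as miR-34. dme-miR-277 changed by -0.38 ± 0.21 (adjusted p = 0.165) and miR-317 by -0.17 ± 0.22 (adjusted p = 0.683), and both overlapped between stages. Of 13 tested probes of the cluster 4 fell, all of them forms of miR-34, and 0 rose. Whether miR-34 fell by more than its neighbours was not tested.

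**Figure D2:**
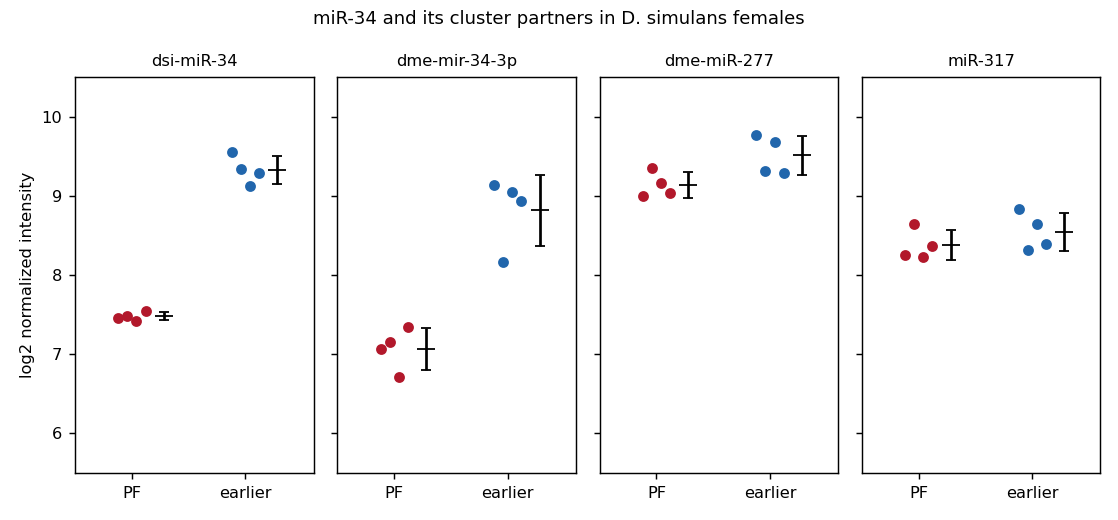
Log2 normalized intensity of both arms of miR-34 and of its cluster partners in each sample, with PF left of the earlier stage. Points are samples and bars are the mean ± SD of 4. The stages are apart for dsi-miR-34 (7.43 to 7.55 at PF, 9.13 to 9.55 earlier) and dme-mir-34-3p, and overlap for dme-miR-277 and miR-317.

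miR-289 read 7.18, 7.53, 7.06 and 6.81 at PF, against 8.90, 9.21, 8.31 and 9.08 earlier, with no overlap (-1.73 ± 0.25, 3.32-fold lower, adjusted p = 1.17e-07). Both probes named for miR-958, whose seeds differ, fell, dsi-miR-958 by 1.62 ± 0.17 and dme-miR-958 by 1.50 ± 0.34 on the log2 scale. Both were detected in 3 of 4 PF samples and in 4 of 4 earlier ones. dme-mir-284-5p fell by 1.07 ± 0.19 on the log2 scale, a call that ended with plain background subtraction (adjusted p = 0.0550). miR-284, from the opposite arm, fell by 0.61 ± 0.24 (adjusted p = 0.0417), a call that ended without replicate 1, 3 or 4 (adjusted p up to 0.238).

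miR-10, which lies in the Antennapedia complex of Hox genes, fell modestly at a high level. dsi-miR-10 read 10.94, 10.74, 10.92 and 10.99 at PF, against 11.64, 11.53, 11.71 and 11.68 earlier. Every PF sample was lower (-0.74 ± 0.22, adjusted p = 0.00666), and the call ended without replicate 2 (adjusted p = 0.0558), with no replicate block, with median centring and with no normalization within arrays. dme-miR-10-5p fell by 0.65 ± 0.15 (adjusted p = 3.99e-04), and the opposite arm, dme-miR-10-3p, changed by -0.37 ± 0.18 (adjusted p = 0.0952). Of 8 tested probes of the Hox list, with a median of -0.33, 3 fell and 1, miR-993, rose (0.29 ± 0.12). The shares were 37.5% and 12.5%, beside 38 of 272 and 24.3% over all tested probes. The rise of miR-993 was lost with any replicate left out (adjusted p up to 0.213). The falls numbered 1 without replicate 2 or with no replicate block, 0 with median centring or no normalization within arrays, and 5 in the authors' table.

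In the list of gut, fat body and metabolic miRNAs 11 of 48 tested probes rose and 7 fell, with a median of 0.00. These shares, 22.9% and 14.6%, stand beside 24.3% and 38 of 272 over all tested probes. The rises numbered 3 with plain background subtraction or in the centred form of the authors' table, and the falls 1 with median centring or no normalization within arrays and 15 when the 4 arrays were fitted alone with a dye term. The rises were all of miR-276 and the falls of miR-281 and miR-14. dme-miR-281-2* fell by 0.94 ± 0.22 (adjusted p = 4.79e-04) and cqu-miR-281*, a mosquito-named probe, by 0.76 ± 0.14, calls that ended with median centring or no normalization within arrays. Of 6 tested probes on the arm of cqu-miR-281* 3 fell and 0 rose, and the fly-named one, miR-281, changed by -0.47 ± 0.21 (adjusted p = 0.0676). miR-275 read 13.15, 12.58, 13.11 and 12.74 at PF, against 13.10, 12.52, 12.93 and 12.73 earlier (0.07 ± 0.14, adjusted p = 0.824). dme-miR-305, cut from the same cluster and known for its part in the renewal of gut stem cells, changed by -0.00 ± 0.19 (adjusted p = 0.996), and 0 of 11 tested probes of that cluster passed limma's test, with 0 at an unadjusted p under 0.05.

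Of the ecdysone and heterochronic list, 15 of 31 tested probes rose and 6 fell (median 0.23). The shares were 48.4% and 19.4%, beside 24.3% and 38 of 272 over all tested probes. The rises were those of the let-7 complex and miR-252 and the falls those of miR-34 and miR-14. miR-14 is known in D. melanogaster for limiting cell death and for a loop with the ecdysone receptor. Its opposite arm, dme-mir-14-5p, read 6.68, 6.60, 6.47 and 6.86 at PF, against 12.45, 13.53, 11.91 and 12.42 earlier, a fall to near background (-5.92 ± 0.52, 60.7-fold lower, adjusted p = 2.64e-14). The probe aae-miR-14 on the main arm read 13.97, 13.89, 13.84 and 13.74 at PF, against 14.31, 14.38, 14.31 and 14.41 earlier (-0.49 ± 0.17, adjusted p = 0.0159). Its fall was lost without replicate 1 or 3 (adjusted p up to 0.171) and turned into a rise of 0.80 with quantile normalization of channels. The fly-named miR-14 probe followed the dye: its 4 highest readings, 7.50 and 7.47 at PF and 8.64 and 7.99 earlier, were the 4 samples in Cy5, and its change was -0.42 ± 0.62.

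The target of dme-mir-14-5p has runs of G, here a run of 4 or more or else 2 runs of 3, as do 20 of the 272 tested probes. Of these 20, 7 fell and 0 rose, with a median of -0.47, and they include 5 of the 15 largest falls and 0 of the 15 largest rises. With such probes left out of the normalization and the test, an alternative chosen after seeing the data, 52 probes rose and 41 fell. aae-miR-92a* was detected in 0 of 4 PF samples and ran from 7.98 to 10.64 in the earlier samples, where both Cy5 samples, replicates 2 and 4, were above both Cy3 samples. It was at least 6.91-fold lower at PF (means 6.09 ± 0.17 at PF and 9.39 ± 1.18 earlier, SD, adjusted p = 2.38e-04). dme-mir-313-5p (at least 4.01-fold lower) and the custom probe dme-wu-mir-2318-5p (at least 3.64-fold lower) were also undetected in all PF samples. All 3 fell on each of the 4 arrays, 2 of each dye orientation. The part of base composition in these falls was not tested.

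Custom probes of the array made up much of the remaining list of falls. These probes carry only the names of the array's design and no role is given for them here. dsi-wu-mir-2349-3p, whose target has runs of G and is identical to that of 2 further custom probes, read 10.12, 10.93, 10.63 and 11.37 at PF, against 15.27, 15.23, 15.10 and 15.46 earlier. The fall was -4.50 ± 0.51 (22.7-fold lower, adjusted p = 1.04e-10), from among the brightest readings. dsi-wu-mir-2774-5p, without runs of G, fell by 2.11 ± 0.40, and dsi-wu-mir-2359-3p, detected in 0 of 4 PF samples, was at least 3.59-fold lower at PF. t454m18-seq-6-5p, also undetected at PF, was at least 1.55-fold lower.

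**Figure D3:**
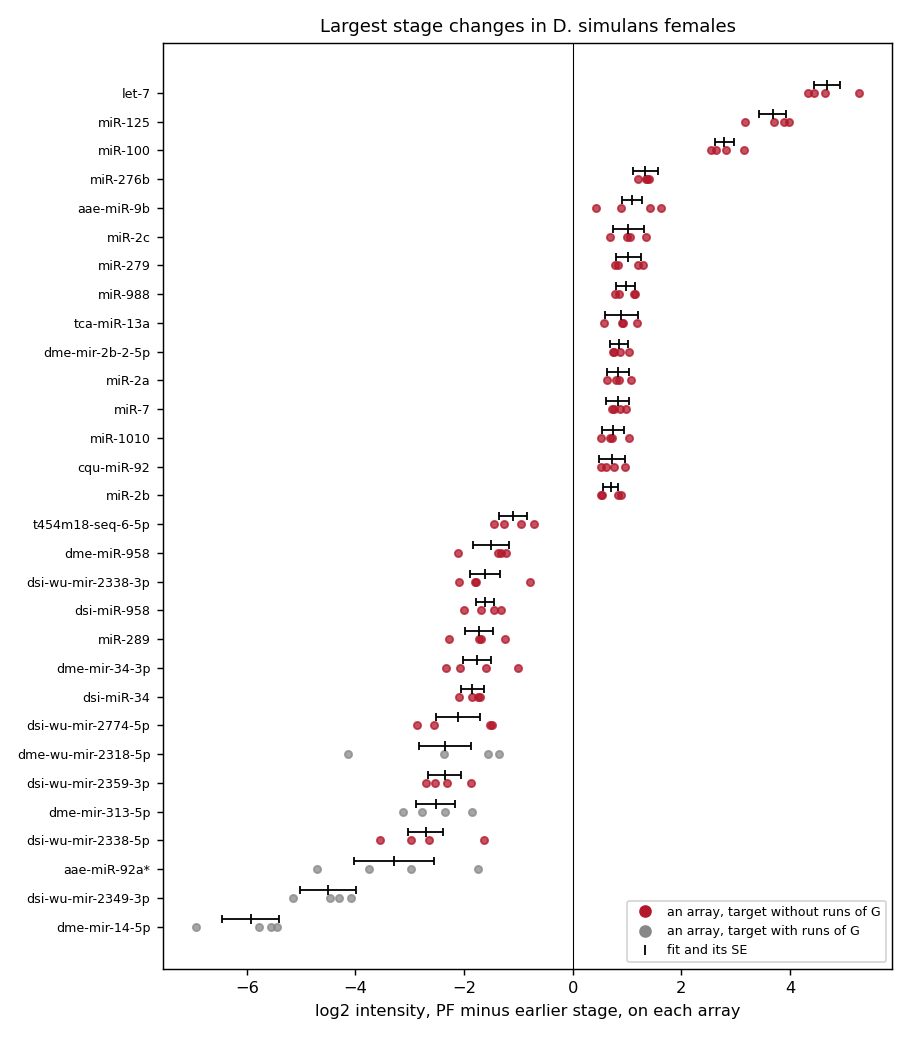
Log2 difference PF minus earlier on each of 4 arrays for the 15 largest rises and the 15 largest falls. Points are arrays, grey where the target has runs of G, and bars are the fitted change ± SE. The grey points all lie left of 0, among the falls.

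In the growth and apoptosis list 0 of 24 tested probes rose and 2 fell, both of them forms of miR-14, with a median of 0.14. The falls were 8.33% of the list, and over all tested probes 24.3% rose and 38 of 272 fell. The fall of aae-miR-14 ended without replicate 1 or 3. The count of rises was 3 with median centring within arrays and 7 when the 4 arrays were fitted alone with a dye term. bantam, a promoter of growth, had 3 tested probes on its main arm, of which 0 passed. aae-bantam-3p was detected in all 8 samples (8.38 ± 0.23 at PF and 8.09 ± 0.26 earlier, SD, change 0.28 ± 0.24), as was cqu-bantam* (0.17 ± 0.21), whereas the fly-named bantam probe was detected in 1 of 8 (0.06 ± 0.16). In the germline and ovary list 1 of 16 rose and 1 fell (6.25% each), dme-miR-79 (0.37 ± 0.14) and dme-mir-313-5p. The rise was lost with any replicate left out (adjusted p up to 0.123). miR-184 of that list was bright at both stages and changed by -0.08 ± 0.17. In limma's test 0 of 3 tested probes of K-box miRNAs outside miR-2 and 0 of 4 of the miR-12, miR-283 and miR-304 cluster passed, with 0 of either at an unadjusted p under 0.05. In the cluster of miR-9c, miR-306, miR-79 and miR-9b, 2 of 7 rose (28.6%, beside 24.3% of all tested probes), aae-miR-9b and dme-miR-79. The rise of miR-9b rests on aae-miR-9b alone, as dgr-miR-9b, of the same arm, and dme-mir-9b-3p were detected in 0 of 8 samples. dme-miR-306 changed by 0.28 ± 0.18 (adjusted p = 0.255). Of 9 tested probes of the miR-310 to miR-313 cluster 1 fell, dme-mir-313-5p, which was also the only one of them detected in any of the 8 samples. No probe of the miR-994 and miR-318 cluster was bright enough to be tested.

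The stage change was next set against that of males of the same stock. The test of the difference, females minus males, passed for 16 of 272 probes (5.88%), 9 higher (3.31%) and 7 lower (2.57%), with 39 at an unadjusted p under 0.05. The median difference was -0.09. Males and females were hybridised on separate slides and share no file code, so sex, slide and code cannot be told apart. The count of 16 was 10 without replicate 4. It was 0 in the authors' table (limma, 27 at an unadjusted p under 0.05) and 2 in that table once centred, 6 with median centring or no normalization within arrays, and 8 with plain background subtraction, with no replicate block, or with runs of G left out.

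miR-125 rose by more in females. The changes on the 4 arrays were 3.17 to 3.98 in females and 1.15 to 2.34 in males, which did not overlap, and the difference was 2.06 ± 0.35 (adjusted p = 2.68e-05). In males miR-125 read 7.61, 8.34, 8.68 and 7.58 at PF and was detected in 0 of 4 earlier samples too. The mean levels were 10.24 in females and 8.05 in males at PF, and 6.56 in females and 6.43 in males earlier. The difference had the opposite sign in the authors' table (-0.41, adjusted p = 0.985), and its call ended with plain background subtraction. miR-100 differed the same way (0.92 ± 0.26, adjusted p = 0.0152), also from earlier levels below detection in both sexes. The miR-100 difference is not among those that the rule names and was not followed through the alternatives. let-7, which was detected in every sample of both sexes, gave a difference of -0.25 ± 0.34 (adjusted p = 0.974).

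The custom probes named as the 2 arms of hairpin dsi-wu-mir-2338 went opposite ways in the sexes. In females dsi-wu-mir-2338-5p read 6.57, 6.47, 6.78 and 7.30 at PF, against 10.13, 9.45, 9.43 and 8.94 earlier (-2.71 ± 0.32). In males it read 9.50, 11.64, 11.90 and 12.12 at PF, against 9.62, 9.11, 10.53 and 10.36 earlier (1.39). All 4 female arrays showed a fall and 3 of 4 male arrays a rise, and the difference was -4.09 ± 0.45 (adjusted p = 1.50e-10).

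dsi-wu-mir-2338-3p fell on all 4 female arrays (-0.79 to -2.09) and rose on all 4 male arrays (1.03 to 3.35), a difference of -3.80 ± 0.40 (adjusted p = 6.87e-11). At PF its mean level was 6.45 in females, where it was detected in 1 of 4 samples, and 11.29 in males. Both calls ended in the authors' table, where both differences stayed below 0 (adjusted p up to 0.0747 and 0.0586). The D. melanogaster females also showed falls, of -2.03 for dsi-wu-mir-2338-5p and -1.60 for dsi-wu-mir-2338-3p.

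dme-miR-305 ran from -0.11 to 0.15 on the female arrays and from 0.25 to 2.11 on the male arrays, a difference of -1.28 ± 0.27 (adjusted p = 6.79e-04). dme-miR-306 changed by 0.18 to 0.39 on the female arrays and by 0.96 to 1.50 on the male arrays, a difference of -0.97 ± 0.26 (adjusted p = 0.0128), which ended without replicate 4 (adjusted p = 0.0812). miR-11 (-1.01 ± 0.32) and the mosquito-named aae-miR-2a (-0.65 ± 0.18) were lower too. Each lost its call when 1 replicate was left out, for 3 of the 4 replicates (adjusted p up to 0.203 and 0.0877). Both calls ended in 15 of 19 alternatives, and the fly-named miR-2a probe was not among the lower calls. Among the probes whose targets have runs of G, 5 of 20 had a stage change called higher in females and 0 a lower one, beside 3.31% called higher over all tested probes. Of these, dme-wu-mir-2318-5p had mean levels of 8.46 in females and 11.79 in males at the earlier stage. It was detected in 0 of 4 female and 2 of 4 male samples at PF, so the size of its fitted difference is not exact, and the sign turned with plain background subtraction and in the authors' table.

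**Figure D4:**
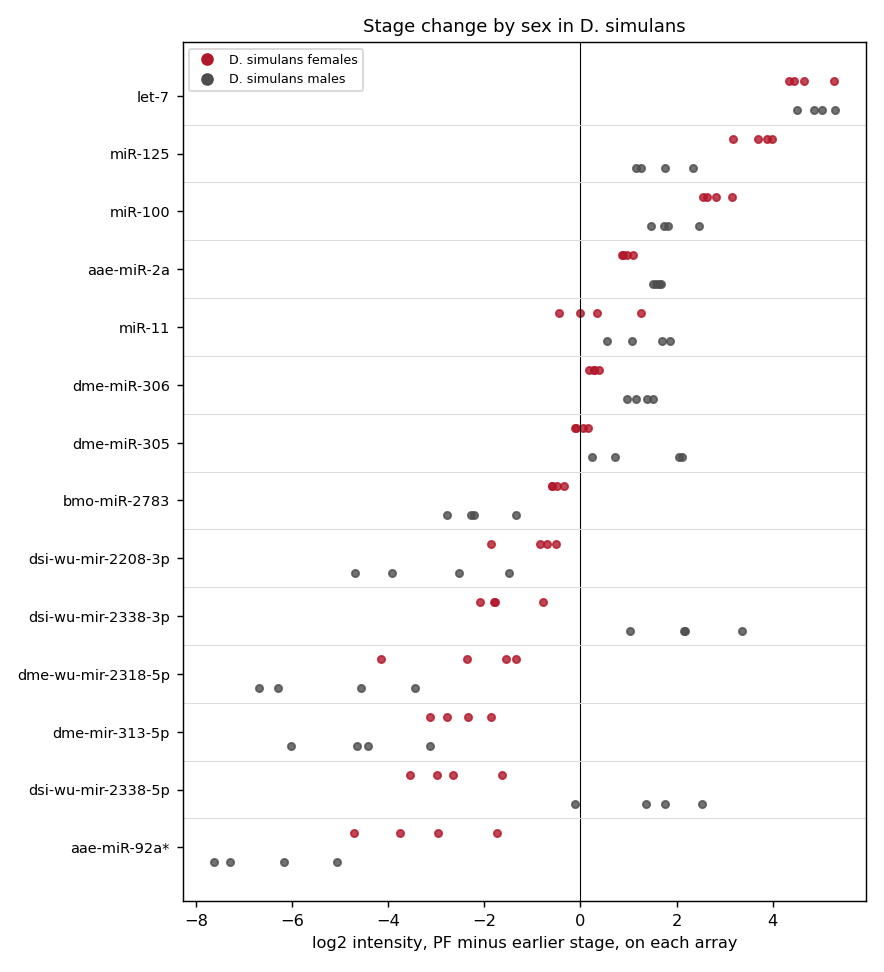
Log2 difference PF minus earlier on each array, D. simulans females above D. simulans males, for the named differences between the sexes and for miR-100 and let-7. Points are arrays (4 a sex). The 2 dsi-wu-mir-2338 probes lie left of 0 in females and, but for 1 array, right of 0 in males, and let-7 overlaps.

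The stage change was also set against that of D. melanogaster females, the mean of Oregon-R and Zimbabwe-109. The difference passed for 77 of 272 probes (28.3%), 30 higher and 47 lower (17.3%) in D. simulans, with a median of -0.11. Of 129 probes detected in all 8 D. simulans female samples, 4 were higher and 23 lower. The D. simulans arrays shared a slide with 2 of the 4 Zimbabwe-109 arrays, but no file code with any D. melanogaster female array, so species and code cannot be told apart even there. Differences within that slide, D. simulans minus Zimbabwe-109, are given as differences of means without a p-value. A separate limma fit of that slide alone gave the calls described as those on the shared slide alone. The count was 49 against Zimbabwe-109 on that slide alone, a comparison chosen after seeing the data. It was 33 with female arrays alone, 34 with plain background subtraction, median centring or no normalization within arrays, and 11 in the authors' table. The prevailing direction followed the processing. The split was 24 higher and 10 lower with plain background subtraction and 23 and 11 with median centring. It was 21 and 13 with no normalization within arrays and 24 and 15 with no replicate block. It was 29 and 20 on the shared slide alone and 38 and 33 with no filter on dim probes. In the authors' table it was 9 and 2, and 9 and 8 once centred. Lower calls outnumbered higher ones in every other alternative, such as female arrays alone (12 and 21).

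miR-289 fell on all 4 D. simulans arrays (-1.24 to -2.28), whereas the 8 D. melanogaster arrays ran from -0.61 to 2.84 with a median of 0.39. The sets did not overlap, and the difference was -2.42 ± 0.31 (adjusted p = 2.81e-08), with -1.60 within the shared slide. The mean level was 7.15 in D. simulans and 8.74 in D. melanogaster at PF, and 8.88 in D. simulans and 8.05 in D. melanogaster earlier. The change in males of the D. simulans stock was -1.55.

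dsi-miR-10 fell on all 4 D. simulans arrays (-0.68 to -0.79), against -0.23 to 1.33 in D. melanogaster, a difference of -1.15 ± 0.28 (adjusted p = 0.00146) and -1.13 within the slide. This probe is not among the lower differences that the rule names, which takes 1 probe per arm. Its difference was not followed through the alternatives. miR-1010 rose by less in D. simulans (0.52 to 1.03) than in D. melanogaster (1.15 to 2.71), a difference of -1.19 ± 0.24 (adjusted p = 1.71e-04) and -0.95 within the slide. miR-284 changed by -0.61 in D. simulans and by 0.46 in D. melanogaster, a difference of -1.07 ± 0.30 (adjusted p = 0.00591) and -1.40 within the slide. dme-miR-305 differed by -1.03 ± 0.23 (adjusted p = 7.64e-04) and by -0.78 within the slide. The calls of miR-1010, miR-284 and dme-miR-305 ended on the shared slide alone and in the authors' table. That of miR-1010 also ended with plain background subtraction and in the centred form of that table. Those of miR-284 and dme-miR-305 also ended with median centring and with no normalization within arrays, and that of miR-284 with female arrays alone.

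miR-100 gave a difference of -0.99 ± 0.22 (adjusted p = 6.69e-04), and -0.54 within the slide, with mean PF levels of 9.39 in D. simulans and 9.24 in D. melanogaster. The earlier levels, 6.60 in D. simulans and 5.46 in D. melanogaster, were detected in 0 of 4 and 1 of 8 samples. Like that of dsi-miR-10, the miR-100 difference is not among those named by rule and was not followed through the alternatives. let-7 differed by -0.41 ± 0.30 (adjusted p = 0.305) and by -0.40 within the slide. miR-125 differed by -0.00 ± 0.31 (adjusted p = 0.990) and by 1.23 within the slide. aae-let-7, a mosquito-named probe, changed by 0.49 ± 0.54 in D. simulans and by 3.18 in D. melanogaster, a difference of -2.69 ± 0.66 (adjusted p = 0.00179) and -5.30 within the slide, whose sign turned in the authors' table. dgr-miR-9b was detected in 0 of 8 D. simulans female samples and rose by 1.06 in D. melanogaster, with a difference of -1.88 within the slide.

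Of the 20 tested probes with runs of G, 16 changed to a higher value in D. simulans than in D. melanogaster females and 0 to a lower one. On the shared slide alone 12 of the 20 were called higher and 0 lower. dps-miR-2571*, whose target has none, had the largest fitted difference (4.36 ± 0.79, adjusted p = 2.84e-05, 7.17 within the slide). It was detected in 2 of 4 earlier samples of D. simulans females (mean 7.08) and in 8 of 8 earlier samples of D. melanogaster females (10.73). dme-wu-mir-2318-5p (fitted difference 4.06 ± 0.59, 5.41 within the slide) had mean earlier levels of 8.46 in D. simulans and 11.91 in D. melanogaster. dps-miR-2550* (3.74 ± 0.66, 7.03 within the slide) was detected in 2 of 4 earlier samples in D. simulans and in 8 of 8 in D. melanogaster. All 3 were undetected at PF in D. simulans and detected in at most 1 of 8 PF samples of D. melanogaster, so these differences rest on levels near background and their sizes are not exact. Those of dme-wu-mir-2318-5p and dps-miR-2550* lost their calls in the authors' table.

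**Figure D5:**
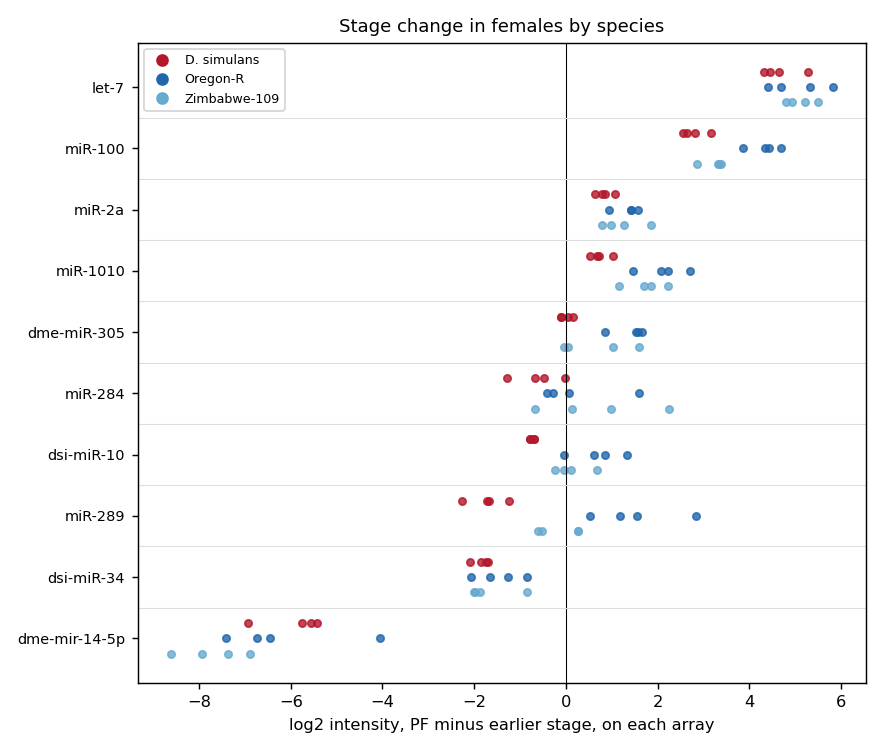
Log2 difference PF minus earlier on each array in females of D. simulans (upper points of each row), Oregon-R and Zimbabwe-109, for fly miRNAs with and without a difference. Points are arrays (4 a strain). miR-289 lies left of 0 on all 4 D. simulans arrays and runs from -0.61 to 2.84 in D. melanogaster, whereas dsi-miR-34 overlaps.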

How the data were processed

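Total RNA of whole animals was labelled by LC Sciences, per the labels' protocols. The deposited intensity of a spot is its median density, linear and raw, per the file headers, which name the sample in each channel, and dyes come from the labels. The authors' second deposited table, a processed intensity for 4333 spots, has an unstated scale and centring. In the 8 samples its values had rank correlations of 0.80 to 0.97 with the scanner values and column medians of 0.496 to 1.74, and it served as an alternative only.

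Intensities were corrected with limma's normexp (offset 50) on the 689 empty spots, normalized by loess within and Aquantile between arrays, and probes were summarised by the log2 median of their 3 spots. A probe was called detected where its median exceeded that of the empty spots by 3 SD, and tested where this held in at least 3 samples of any of the 18 groups. Single channels of all 72 samples were fitted in R 4.3.3 (limma 3.58.1, statmod 1.5.0), with dye as covariate and the array as random block (correlation 0.41). The pairing comes from the file headers, which place both stages of a replicate number on 1 array. Their deviations from group and dye means correlated at 0.05 to 0.21. Slides and 4-digit codes were read from the names of the array files. Calls had adjusted p under 0.05. Where a probe was detected in 0 of 4 samples of a stage, the fold is "at least" the bright mean over the mean of, per sample, the lowest detected signal or the probe's own if higher. Other dim folds are understated because of the offset.

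By rule the text names up to 15 rises and 15 falls with the same sign on 4 arrays, 1 probe per arm or target, up to 6 differences in each direction, detected members of the let-7 complex and of clusters, up to 4 examples of each other list, and opposite arms. Members and lists were chosen with earlier results of these data known. The labels call the samples biological replicates, each from pooled animals, and the number of arrays limits the precision. The unit of the stage label is not given. The fits were also run on simulated data with 1 dye factor for all probes, which does not copy probes that follow the dye. The outcome of that run is not given here. Target sequences come from the array files, and chromosome arms from the RefSeq gene table by hairpin symbol.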

Additional observations from a re-analysis of the deposited data

Results flagged for a closer look

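In groups of 4, some single samples stood apart from the other 3 by more than Dixon's limit, which chance alone passes in about 1 of 20 groups, and 200 groups were examined. At the earlier stage replicate 4 read 6.83 for miR-125 (others 6.43 to 6.49) and 6.95 for miR-100 (others 6.45 to 6.50), and replicate 3 read 6.16 for dpu-miR-100 (others 6.45 to 6.47). Replicate 1 of that stage read 6.78 for miR-993 (others 6.51 to 6.54) and 6.65 for dme-mir-2a-2-5p (others 6.36 to 6.39). At PF replicate 1 read 6.26 for dme-mir-313-5p (others 6.00 to 6.02) and 6.31 for dps-miR-2571* (others 6.03 to 6.07), and replicate 4 read 6.86 for bmo-miR-279b (others 7.31 to 7.36). PF replicate 4 also had the fewest detected probes of its stage, 147, and the widest spread of empty spots, an SD of 16.8 intensity units.

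The stage change differed between females and males by test. It was higher in females for aae-miR-92a* by 3.24, dme-wu-mir-2318-5p by 2.89, dsi-wu-mir-2208-3p by 2.17, miR-125 by 2.06, dme-mir-313-5p by 2.03 and bmo-miR-2783 by 1.64 on the log2 scale. Of these 6 all but miR-125 were undetected in all 4 female PF samples, so the sizes are not exact. The call of aae-miR-92a* ended without replicate 1, 3 or 4 (adjusted p up to 0.233) and that of dsi-wu-mir-2208-3p without replicate 4 (adjusted p = 0.0836). The difference was -4.09 for dsi-wu-mir-2338-5p, -3.80 for dsi-wu-mir-2338-3p, -1.28 for dme-miR-305, -1.01 for miR-11, -0.97 for dme-miR-306 and -0.65 for aae-miR-2a.

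Between D. simulans and D. melanogaster females the difference was 4.36 for dps-miR-2571*, 4.06 for dme-wu-mir-2318-5p, 3.74 for dps-miR-2550*, 3.66 for dsi-wu-mir-2208-3p, 3.12 for aae-miR-92a* and 3.07 for dsi-wu-mir-2986-5p. All 6 were undetected in the 4 D. simulans PF samples, so these sizes are not exact either, and the call of aae-miR-92a* ended without replicate 1 (adjusted p = 0.0511). The difference was -2.69 for aae-let-7, -2.42 for miR-289, -1.19 for miR-1010, -1.07 for miR-284, -1.03 for dme-miR-305 and -1.0 for dgr-miR-9b. Outside the measured miRNAs, all 8 probes for 2S ribosomal RNA were above the empty spots in all 8 samples.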

How the results depend on the processing

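Of 52 named probes called between stages, 29 kept the call under every alternative run. A single called value turned, aae-miR-14 (0.80 with quantile normalization of channels), and 79 values that were called in neither setting changed sign. Stage calls numbered 74 to 90 with 1 replicate left out. The split of 66 higher and 38 lower became 44 and 40 with plain background subtraction, 57 and 52 with an offset of 16, 67 and 23 with median centring within arrays, 64 and 22 with no normalization within arrays, 28 and 49 in the centred form of the authors' table, and 25 and 50 in its deposited form. Both samples of an array share its spots, and with no replicate block for this pairing 67 probes were called between stages, 8 between the sexes and 39 between the species.

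The 16 differences between the sexes were 10 to 14 with 1 replicate left out. They were 8 with plain background subtraction, 6 with median centring and 6 with no normalization within arrays, 0 in the authors' table, 2 in that table centred, 6 among probes detected in all 8 samples, 9 with no filter on dim probes and 8 with runs of G left out. The 77 differences between the species were 55 to 63 with 1 replicate left out. They were 34 with plain background subtraction, with median centring or with no normalization within arrays, 11 in the authors' table, 17 in that table centred, 44 among probes detected in 3 samples of a stage, 25 among those detected in all 8, 33 with female arrays alone and 49 on the shared slide. In the authors' table and in that table centred, differences between the sexes turned to -1.83 and -1.78 for aae-miR-92a*, -1.13 and -1.09 for dme-wu-mir-2318-5p, -0.41 and -0.36 for miR-125, and -1.93 and -1.88 for dme-mir-313-5p. With plain background subtraction they turned to -0.17 for dme-wu-mir-2318-5p, -0.00077 for dsi-wu-mir-2208-3p and -1.59 for dme-mir-313-5p. Between the species, in both forms of that table, they turned to -0.57 and -0.95 for aae-miR-92a* and to 1.11 and 0.72 for dgr-miR-9b, and in the table as deposited to 0.14 for aae-let-7. The cause was not tested. The planned fits within hybridization or scan days were not run, as the file headers give none. With the 4-digit file code as a block, an alternative chosen after seeing the data, 111 probes were called between stages, 14 between the sexes and 75 between the species. The stage calls of miR-284 (adjusted p = 0.0699) and dme-mir-2a-1-5p (adjusted p = 0.0513) and the sex differences of aae-miR-92a*, miR-11 and aae-miR-2a (adjusted p up to 0.0750) were lost. Within each code the median over all tested probes was 0.06 for replicates 1 and 2 and 0.03 for replicates 3 and 4. Probes near background limit what 4 arrays can show: 61 tested probes were detected in 0 of 8 samples.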
